A study of Rattus norvegicus with 13 samples.

Results

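The genes of the Rab small GTPases, the switches that direct membrane traffic, are described here for the MPOA (medial preoptic area) of rats given a hairpin RNA against Oprm1, the mu opioid receptor gene, or a scrambled hairpin. They are the 50 rows, out of 14855 genes, of the authors' deposited table whose symbol is Rab followed by a number and, where present, a letter and a further digit. Membership rests on the symbol and uses no measured value, though the members were chosen with earlier results of these data known.

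Rab GTPases are the largest branch of the Ras superfamily. Each Rab marks a particular membrane of the cell, is switched on by a guanine nucleotide exchange factor (GEF), recruits effectors while bound to GTP, and is switched off by a GTPase-activating protein (GAP). In neurons Rab3 proteins act in the release of synaptic vesicles, Rab5, Rab4 and Rab11 carry internalised receptors through early and recycling endosomes, Rab7 and Rab9 act at late endosomes, and Rab1, Rab2 and Rab6 act in transport between the endoplasmic reticulum (ER) and the Golgi. Internalised G protein-coupled receptors, the mu opioid receptor among them, are sorted in these endosomes towards recycling or degradation.

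The sequenced RNA came from the MPOA, a region of the hypothalamus, in SAS Sprague-Dawley male rats at adolescence. On postnatal day 21 a virus of the type AAV5 with GFP was injected on both sides at 0.5 uL per side, and tissue was dissected from 200 micron sections between −0.24 and −0.72 mm from bregma. The scrambled group (AAV5-GFP-U6-Scr-shRNA) held 7 samples and the knockdown group (AAV5-GFP-U6-Oprm1-shRNA) held 5, after 1 further sample was left out by its own label as an outlier. The U6 promoter is active in most cell types, the hairpin acts only in cells the virus reached, and the labels do not give the share of such cells or say that each sample is a separate rat. The p-values therefore measure only the spread between these samples, which may be technical.

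The values are those of the authors' edgeR comparison, in which a positive log2 fold change means a higher level with Oprm1 shRNA. Single samples' values were not analysed here, so the depth per sample is unknown and the spread between samples enters only through the authors' likelihood ratio statistic. A standard error (SE) was derived for every gene by dividing the size of its log2 fold change by the square root of that statistic, and it gave an approximate 95% interval. Folds and the intervals in brackets after them were computed in this way from the table. For Oprm1 (ENSRNOG00000018191), the target of the hairpin, the log2 fold change was −0.58 at 7.32 CPM (read counts scaled by library size) per the authors' deposited table, with an interval from 0.0715-fold to 6.27-fold, so a knockdown could not be detected at this read number and does not check the labels. Of 47 listed cell type markers, 45 were measured. The 6 neuronal markers (29.7 to 970 CPM), the 3 markers of GABA neurons (205 to 1184 CPM) and the 6 oligodendrocyte markers (165 to 7243 CPM) were present per the authors' deposited table. All 10 markers of preoptic neurons had a row, from 1.03 to 360 CPM with a median of 15.6 CPM. Of these, Hmx3 at 1.03 CPM and Hmx2 at 3.47 CPM lay close to the floor. Among the 45 markers 22 were higher and 23 lower. An unadjusted p under 0.05 was held by 1 of the 45, or 2.22%, beside 4.39% of all genes. This was the astrocyte glutamate transporter gene Slc1a2, at a log2 fold change of −1.47, while the other 5 astrocyte markers lay between −0.17 and 0.37 per the authors' deposited table. In tissue such as this, fewer cells of a type and less RNA per cell cannot be told apart.

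No Rab gene differed between the groups at an adjusted p under 0.05. The count was 0 of 50 by the authors' edgeR likelihood ratio test, where 0.0202% of all genes passed, and each Rab gene had an adjusted p of 0.9997 per the authors' deposited table. Unadjusted p-values under 0.05 were held by 3 of 50 Rab genes, or 6%, beside 4.39% of all genes. These were Rab23, which was higher, and Rab9b and Rab8a, which were lower. Of all genes 1.49% were higher and 2.9% lower at that level per the authors' deposited table. All 3 Rab genes had a log2 average CPM of at least 4. Among genes of that abundance the share was 8.11% of 37 Rab genes beside 3.26% of 8538 genes. The latter were 138 higher and 140 lower, so the tilt to lower over all genes was absent there. These shares were not compared by a test. Rab9b and Rab8a also had an unadjusted p under 0.01, as did 0.916% of all genes per the authors' deposited table. The family was split evenly, with 25 genes higher and 25 lower. Its median log2 fold change was −0.004 beside −0.02 over all genes, and its sign turns when either median of all genes is subtracted. The middle 50% of the Rab genes lay between −0.21 and 0.18 on the log2 scale, and those of all genes between −0.38 and 0.32. Among genes of log2 average CPM of at least 4 these ranges were −0.22 to 0.13 for the Rab genes and −0.23 to 0.21 for all.

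**Figure D1:**
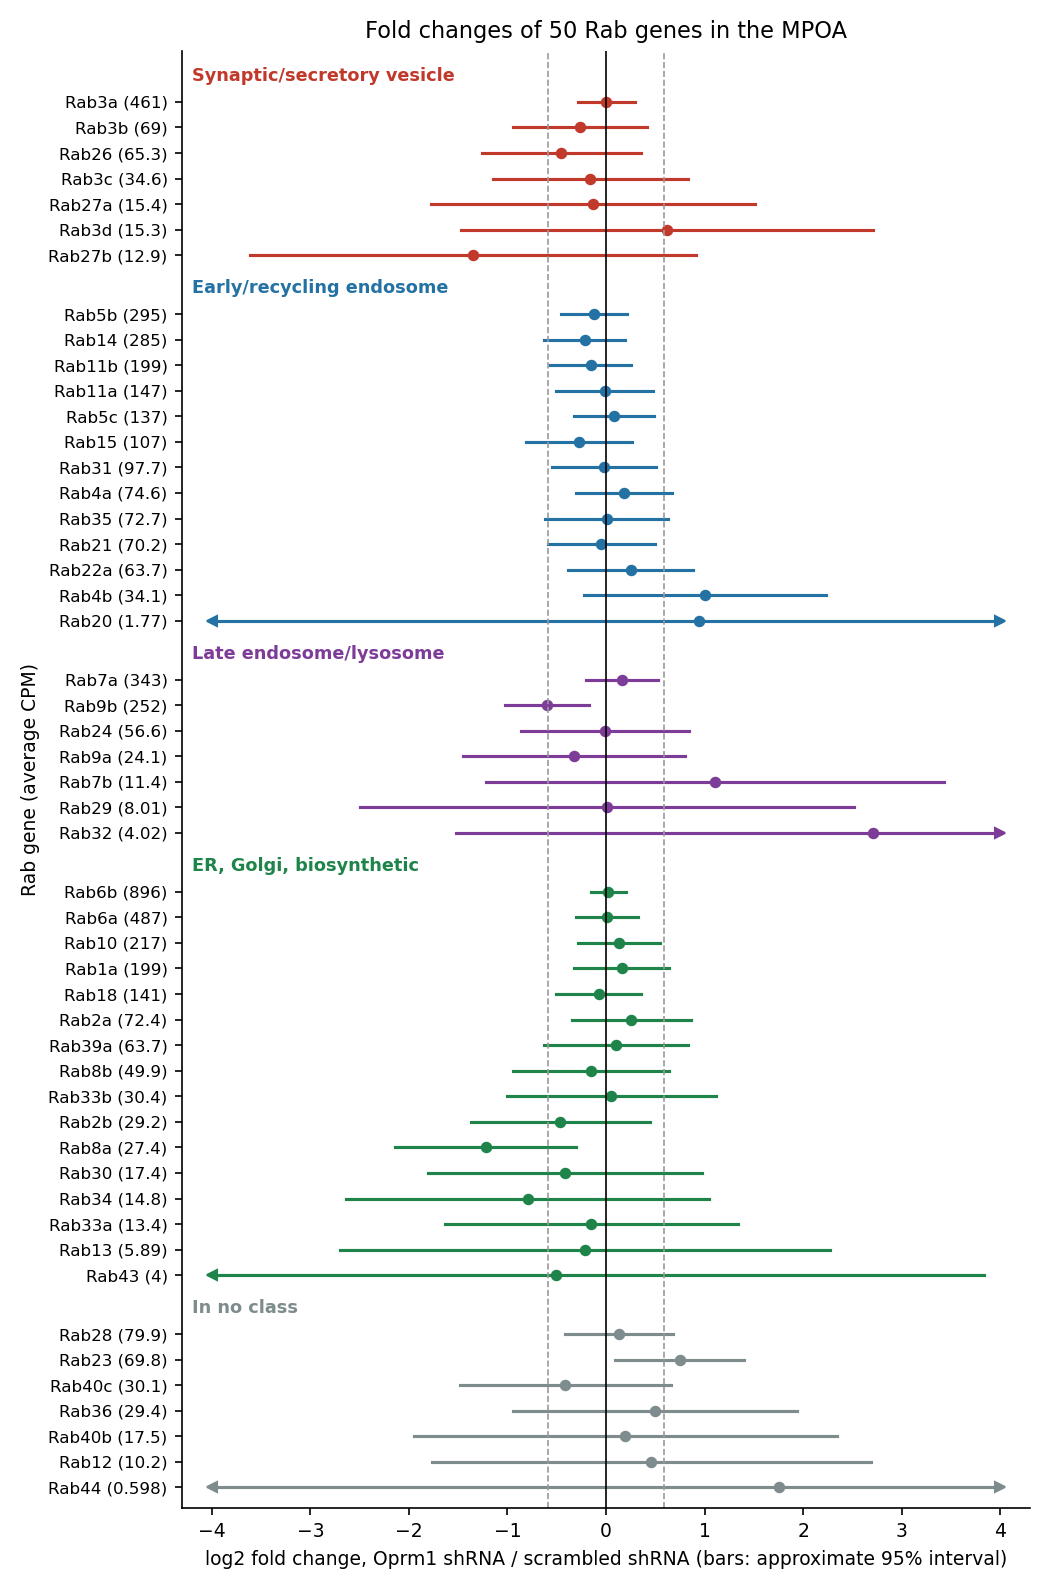
Log2 fold changes of the 50 Rab genes (points) with approximate 95% intervals (bars), grouped by the membrane on which they are known to act and ordered by average CPM, which stands in brackets. The solid line marks no difference, dashed lines mark 1.5-fold in either direction, arrowheads mark intervals that run past the axis, and the intervals of Rab9b, Rab8a and Rab23 alone leave out 0.

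Precision followed abundance. The implied SE of a Rab gene was between 0.757 and 1.35 times the median of the 200 genes nearest to it in average CPM, with a median ratio of 1.04. The spread between samples that these intervals carry is therefore close to what the authors' fit gives any gene of like abundance. The 13 Rab genes of log2 average CPM below 4 had a median SE of 1.18 on the log2 scale, against 0.271 for the 17 between 6 and 8 and 0.165 for the 6 above 8. Over all genes the median SE fell from 0.147 between 400 and 600 CPM to 0.0568 between 1200 and 2400 CPM and was 0.122 above that. The narrow intervals of Rab3a, Rab6a and Rab6b lie on this falling stretch.

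For 11 Rab genes the interval lay within 1.5-fold in both directions, which is 22% of the family beside 9.39% of all genes. Among genes of log2 average CPM of at least 4 the share was 29.7% of 37 Rab genes beside 16.3% of all. The Rab genes there had a median of 72.4 CPM and all genes 53.0 CPM per the authors' deposited table. A wider bound of 2-fold held 24 Rab genes, or 48%, beside 28.6% of all genes, and 64.9% of the Rab genes beside 49.8% of all genes above the abundance minimum. Rab11b lay just inside the 1.5-fold bound with an interval from 0.676 to 1.19, and Rab21 just outside it with 0.663 to 1.41. Just inside the 2-fold bound stood Rab8b (0.518 to 1.55) and just outside it Rab9b (0.493 to 0.888).

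**Figure D2:**
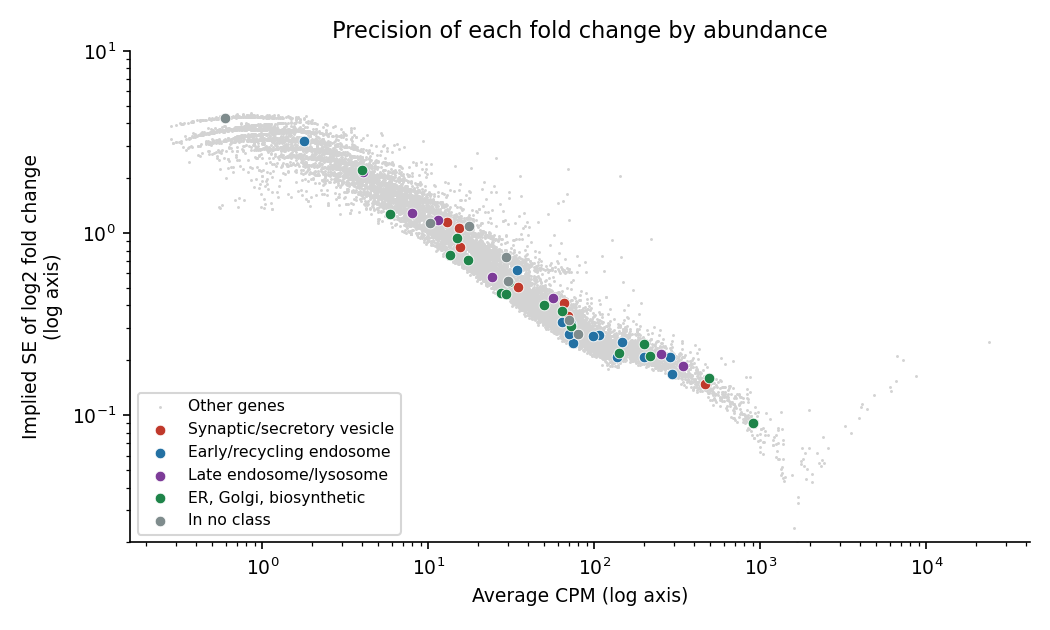
Implied SE of the log2 fold change (log axis) against average CPM (log axis) for the Rab genes, coloured by class, and for all other genes in grey. The Rab genes follow the band of all genes, from an SE of 4.27 for Rab44 at 0.598 CPM to 0.0904 for Rab6b at 896 CPM.

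Rabs of synaptic and secretory vesicles were led in read number by Rab3a, the main Rab of synaptic vesicles, which binds the active zone protein RIM and rabphilin. CPM values also grow with transcript length, so they are given for precision and do not rank the genes by transcript number. Rab3a (ENSRNOG00000019433) had 0.003 as its log2 fold change at 461 CPM per the authors' deposited table, with a fold interval from 0.820 to 1.22. A change of Rab3a larger than these bounds lies outside the interval. Its paralogs are known to stand in for it at synapses or, for Rab3d, to act on secretory granules. Rab3b (ENSRNOG00000008001) had a fold of 0.834 (0.520 to 1.34) at 69.0 CPM and Rab3c (ENSRNOG00000011623) 0.894 (0.450 to 1.78) at 34.6 CPM per the authors' deposited table. Rab3d (ENSRNOG00000011582), at 15.3 CPM, had 1.53 (0.360 to 6.53) per the authors' deposited table. These intervals overlap each other and that of Rab3a, and none of the 4 has an interval that leaves out 1.

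Rab27a and Rab27b dock secretory granules and lysosome-related organelles at the plasma membrane. Rab27b (ENSRNOG00000012176) had the lowest log2 fold change of the family, −1.35, at 12.9 CPM per the authors' deposited table, with a fold interval from 0.0817 to 1.88 (unadjusted p = 0.243). For Rab27a (ENSRNOG00000052499) the fold was 0.912 (0.293 to 2.84) at 15.4 CPM per the authors' deposited table. Rab26, a Rab of secretory granules that has also been linked to the autophagy of synaptic vesicles, had 0.730 (0.417 to 1.28) at 65.3 CPM per the authors' deposited table. Of the 7 genes of this class 2 were higher and 5 lower, 0 passed the test and 0 had an unadjusted p under 0.05. The class median was −0.16 on the log2 scale and lay between −0.21 and −0.09 under the alternatives tried. The value nearest 0 is the mean weighted by precision, in which Rab3a counts most. Some alternatives could not turn the sign: a log2 CPM minimum of 0 drops no member, and the medians of all genes subtracted are only −0.02 and −0.005. As the interval of each of the 7 genes holds 1, no direction is read for the class.

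Early and recycling endosome Rabs were the most precisely measured class by median SE, at 0.271 on the log2 scale. Of 13 genes 6 were higher and 7 lower, around a median log2 fold change of −0.01 that turns positive once the median of all genes is subtracted. None passed the test, and none had an unadjusted p under 0.05. The interval lay within 2-fold in both directions for 11 of the 13, or 84.6%, Rab4b and Rab20 being the exceptions. The share was 28.6% of all genes, and 49.8% of those with a log2 average CPM of at least 4. The class had a median of 97.7 CPM and all genes 22.2 CPM, and intervals narrow with read number. The Rab5 proteins drive fusion of endocytic vesicles with early endosomes. Rab5b had a fold of 0.918 (0.730 to 1.16) at 295 CPM and Rab5c 1.06 (0.797 to 1.41) at 137 CPM per the authors' deposited table. Rab11a and Rab11b return cargo from the recycling endosome to the surface. Their folds were 0.990 (0.703 to 1.40) at 147 CPM and 0.897 (0.676 to 1.19) at 199 CPM per the authors' deposited table. Rab4a and Rab4b act in the fast recycling route out of early endosomes. Rab4a had 1.13 (0.808 to 1.59) at 74.6 CPM per the authors' deposited table. Rab4b (ENSRNOG00000001500) had 2.01 (0.857 to 4.69) at 34.1 CPM per the authors' deposited table, the smallest p of the class at an unadjusted 0.109. The intervals of both Rab4 genes overlap, and the difference between them was not tested.

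The other members of the endosomal class spread little, apart from Rab20. Rab14, which acts between endosomes and the trans-Golgi network, had a fold of 0.861 (0.648 to 1.14) at 285 CPM per the authors' deposited table. Rab15, an early endosome Rab prominent in neurons, had 0.827 (0.570 to 1.20) and Rab22a, of the sorting endosome, 1.19 (0.765 to 1.85) per the authors' deposited table. Folds of Rab21, Rab31 and Rab35 lay between 0.967 and 1.005 per the authors' deposited table, at 70.2 to 97.7 CPM. Rab20, a Rab of phagosomes and endosomes, was close to the floor at 1.77 CPM per the authors' deposited table. Its fold was 1.93, and its interval from 0.0258 to 145 holds values far on either side of 1.

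The late endosome and lysosome class held the Rab gene with the smallest p. Rab9b (ENSRNOG00000047960), a paralog of Rab9a, which returns mannose 6-phosphate receptors from late endosomes to the trans-Golgi network, had a fold of 0.661 (0.493 to 0.888) at 252 CPM per the authors' deposited table. Its unadjusted p was 0.00592 and its adjusted p 0.9997 by the authors' edgeR test. Rab9a (ENSRNOG00000030443) had 0.799 (0.366 to 1.74) at 24.1 CPM per the authors' deposited table, an interval that holds the value of Rab9b as well as no difference. Rab7a, which drives the fusion of late endosomes with lysosomes, had 1.12 (0.871 to 1.44) at 343 CPM per the authors' deposited table. Rab7a and Rab9b therefore lay on opposite sides of no difference within one class, at similar precision (SE 0.185 and 0.217 on the log2 scale), and their difference was not tested.

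Of the remaining late endosomal genes, 3 lay at 11.4 CPM or less and had wide intervals. Rab7b, which acts between endosomes and the trans-Golgi network, had a fold of 2.15 (0.431 to 10.8) at 11.4 CPM per the authors' deposited table. Rab32, a Rab of lysosome-related organelles and mitochondria, had the highest log2 fold change of the family, 2.71, at 4.02 CPM per the authors' deposited table, with a fold interval from 0.349 to 123. Rab24, linked to autophagy, and Rab29, a partner of the kinase LRRK2, had folds of 0.993 (0.549 to 1.80) and 1.01 (0.177 to 5.72) per the authors' deposited table. Of the 7 genes 4 were higher and 3 lower, and the median log2 fold change of 0.007 was −0.17 for the 4 genes of log2 average CPM of at least 4.

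Rabs of the ER, the Golgi and the biosynthetic secretory route included the 2 Rab genes with the most reads. Rab6b, the neuronal form of the Golgi Rab6, had a fold of 1.02 (0.899 to 1.15) at 896 CPM and Rab6a 1.01 (0.809 to 1.25) at 487 CPM per the authors' deposited table. These are the narrowest intervals of the class. Rab1a and Rab2a act between the ER and the Golgi. Rab1a had 1.12 (0.799 to 1.56) at 199 CPM and Rab2a 1.20 (0.787 to 1.82) at 72.4 CPM per the authors' deposited table, while Rab2b had 0.724 (0.386 to 1.36) at 29.2 CPM. Rab10, which carries post-Golgi cargo to the plasma membrane, had 1.10 (0.823 to 1.46) and Rab18, of the ER and lipid droplets, 0.951 (0.705 to 1.28) per the authors' deposited table.

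Rab8a (ENSRNOG00000014621), which directs post-Golgi vesicles to the plasma membrane and the primary cilium, had the smallest p of this class. Its log2 fold change was −1.22 with an SE of 0.469 at 27.4 CPM per the authors' deposited table, a fold of 0.429 (0.227 to 0.811). The unadjusted p was 0.00915 and the adjusted p 0.9997 by the authors' edgeR test. Its SE was 0.838 times the median of genes of like abundance. The close paralog Rab8b (ENSRNOG00000018009) had 0.897 (0.518 to 1.55) at 49.9 CPM per the authors' deposited table, an interval that overlaps that of Rab8a. The other 7 genes were Rab13, Rab30, Rab33a, Rab33b, Rab34, Rab39a and Rab43. Their folds ran from 0.576 to 1.07, each with an interval that holds 1, and Rab34, a Rab of the primary cilium, had the smallest p, with 0.576 (0.161 to 2.06) per the authors' deposited table. Over the 16 genes 7 were higher and 9 lower. The median of −0.11 on the log2 scale was 0.02 among the 12 genes of log2 average CPM of at least 4, 0.0005 as a mean weighted by precision and −0.03 over the ER and Golgi members, so no direction holds for the class.

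**Figure D3:**
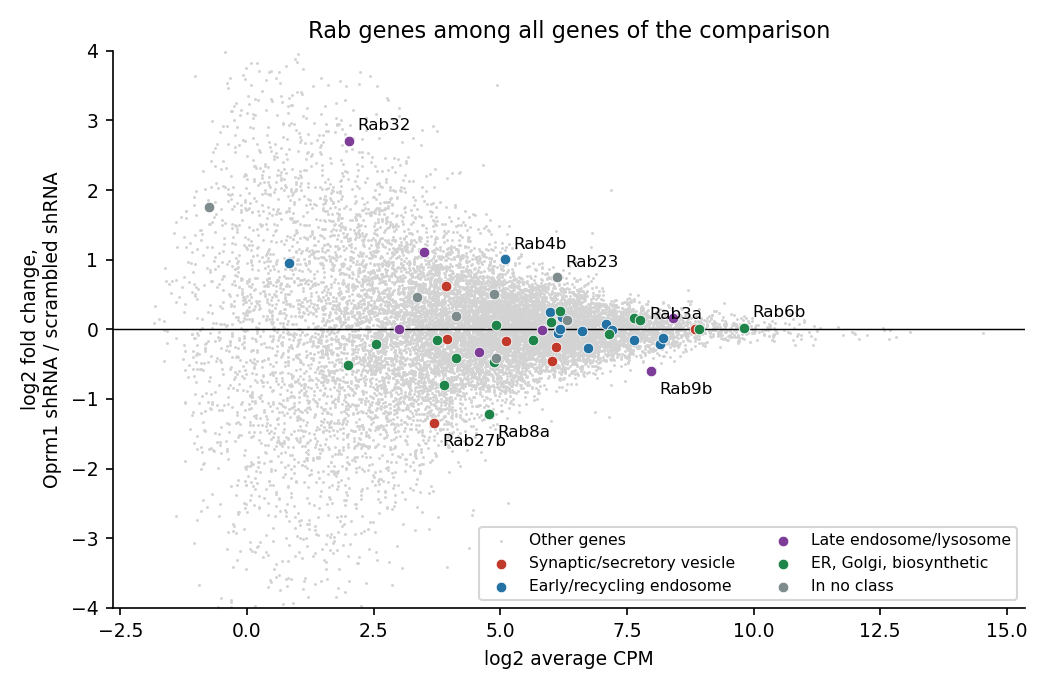
Log2 fold change against log2 average CPM for the Rab genes, coloured by class, and for all other genes in grey; 548 genes lie beyond the axis limit of 4 in either direction. Rab9b and Rab8a lie at the lower edge of the cloud at their abundance and Rab23 at its upper edge, while Rab3a and Rab6b lie on the line of no difference.

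Of the 7 Rab genes in none of these classes 6 were higher and 1 lower, and the median on the log2 scale was 0.46, or 0.19 among the 5 of log2 average CPM of at least 4. Rab23 (ENSRNOG00000012629), known in the mouse as a negative regulator of Hedgehog signalling, had a fold of 1.68 (1.07 to 2.65) at 69.8 CPM per the authors' deposited table. Its unadjusted p was 0.0255 and its adjusted p 0.9997 by the authors' edgeR test. Rab28, of the primary cilium and photoreceptors, had 1.10 (0.750 to 1.60) at 79.9 CPM per the authors' deposited table. Rab40c, whose SOCS box joins it to a ubiquitin ligase, had 0.752 (0.359 to 1.57) at 30.1 CPM and Rab36 1.41 (0.521 to 3.84) at 29.4 CPM per the authors' deposited table. The other 3, Rab12, Rab40b and Rab44, had folds from 1.14 to 3.38, and the interval of each holds 1. Rab44, at 0.598 CPM, lies at the floor of detection.

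Close paralogs can be read side by side in 12 sets, from the 4 Rab3 genes to the pair Rab40b and Rab40c. In each of the 12 sets the intervals of the members overlap. Wide intervals, such as that of Rab7b (0.431 to 10.8), overlap easily, and differences between paralogs were not tested. Members lay on both sides of no difference in 5 sets, namely those of Rab3, Rab5, Rab2, Rab33 and Rab40. The estimation of counts divides reads among similar transcripts, so values of paralogs may not be independent. In RefSeq's GRCr8 annotation, which is another assembly than the authors' build, 14 of the 50 Rab genes overlap a further gene, among them Rab3a with Mpv17l2 and Rab9a with Trappc2. As the labels do not say whether strand was kept, reads of such neighbours cannot be told apart from those of the Rab gene. RefSeq lists 8 more genes that the symbol rule would take, Rab1b, Rab5a, Rab17, Rab19, Rab25, Rab37, Rab38 and Rab42, and these were not analysed here. Under other symbols, LOC100363782, described in the file as RAB1B-like, had a fold of 1.46 (0.953 to 2.23) and AABR07015729.1, described as Rab5a-like, 0.987 (0.641 to 1.52) per the authors' deposited table.

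Proteins that act on Rabs were read from a list of 106 genes, which was also chosen with earlier results of these data known. Those measured gave 98 rows, with separate rows for the Ensembl IDs of Sytl2. Of these 41 were higher and 57 lower, and their median log2 fold change was −0.09. None passed the test in either direction, and 3, or 3.06%, had an unadjusted p under 0.05, beside the 4.39% of all genes. Rabs are loaded with lipid anchors by the geranylgeranyl transferase and drawn from membranes by GDI proteins. Of these 7 genes 4 were higher and 3 lower. The smallest p were those of the transferase subunit Rabggta, with a fold of 0.691 (0.445 to 1.07), the prenylated Rab acceptor Rabac1 (1.23, 0.883 to 1.72) and the transferase subunit Rabggtb (0.764, 0.494 to 1.18) per the authors' deposited table.

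Of 24 GEF genes 9 were higher and 15 lower. Dennd4b, an exchange factor for Rab10, had 1.45 (1.01 to 2.07) with an unadjusted p of 0.0414 per the authors' deposited table. Madd, which activates Rab3 and Rab27, had 0.794 (0.606 to 1.04) at 226 CPM per the authors' deposited table. The 26 GAP genes were split into 13 higher and 13 lower, and none had an unadjusted p under 0.05. The smallest p among them was that of Tbc1d20, a GAP for Rab1, with 1.95 (0.904 to 4.22), before Tbc1d4, a GAP for Rab10 and Rab8a, with 2.001 (0.758 to 5.29), and Evi5 with 0.836 (0.614 to 1.14) per the authors' deposited table.

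Of 41 effector rows 15 were higher and 26 lower, around a median log2 fold change of −0.13. Sytl2 counts in both directions, with folds of 0.680 (0.225 to 2.06) and 1.78 (0.0760 to 41.6) per the authors' deposited table. Rbsn (ENSRNOG00000011391), the gene of rabenosyn-5, which binds Rab4 and Rab5 on early endosomes, had a fold of 0.651 (0.482 to 0.878) at 108 CPM per the authors' deposited table. Its unadjusted p was 0.00499 and its adjusted p 0.9997 by the authors' edgeR test. Pik3c3, the lipid kinase of endosomes that Rab5 binds, had 0.650 (0.396 to 1.07) per the authors' deposited table. Sytl1, an effector of Rab27, was fitted at −8.15 on the log2 scale at 1.13 CPM per the authors' deposited table with an SE of 3.97. A fitted value of this size at so low an abundance depends on the settings of the fit, so no fold is stated.

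**Figure D4:**
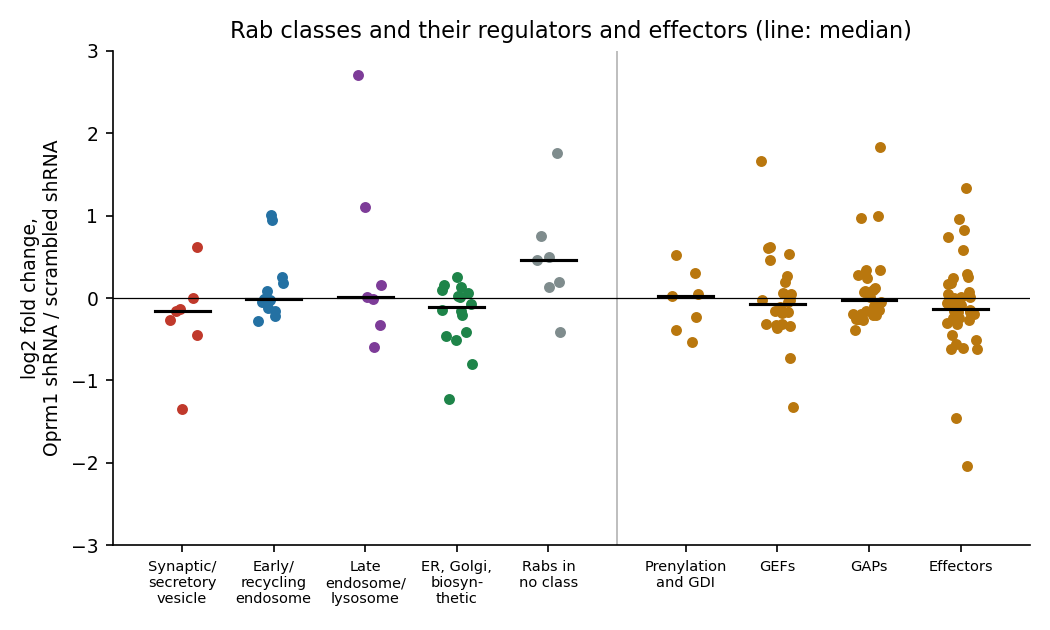
Log2 fold changes of the Rab genes by class (left) and of Rab regulators and effectors (right), with the median as a line. Each gene has 1 point, except Sytl2, which has 1 per Ensembl ID. Of the effectors 1, Sytl1, lies beyond the axis limit of 3. Medians run from −0.16 in the synaptic and secretory vesicle class to 0.46 for Rab genes in no class (0.19 for those of log2 average CPM of at least 4), and from −0.13 in effectors to 0.02 in the prenylation and GDI group.

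Promoter sequence can be described independently of the comparison. RefSeq's promoter table (GRCr8) holds 42 of the 50 Rab genes, with 43 entries. In the 250 bases before the start, 34 of the 43 entries, or 79.1%, held the GC box GGGCGG on either strand. The share was 30.5% of 33469 promoters in RefSeq's table and 55.7% of the 12061 among them whose gene is in the authors' comparison. The E-box CACGTG was found in 2 Rab entries, against 5.59% and 7.72% of those 2 sets. The TATA box TATAAA and the cAMP response element TGACGTCA were found in 0 of the 43. Their shares were 6.69% and 2.66% among RefSeq promoters of genes in the authors' comparison. Motifs found in the Rab entries did not overlap each other. The median GC content was 62.8% beside 59.6% for RefSeq promoters of genes in the authors' comparison, and the motif shares were not matched for it. By class the GC box was in 12 of 12 early and recycling endosome entries, 10 of 14 of the ER, Golgi and biosynthetic class, 5 of 6 late endosomal, 4 of 6 synaptic and secretory ones and 3 of 5 of the Rab genes in no class. A match of letters is a description of the window and not a binding site.

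Shown here are the promoters of Rab3a, the synaptic Rab whose value lay nearest to no difference, and of Rab8a and Rab9b, the Rab genes of smallest p, in RefSeq's GRCr8 on the minus strand at chr16:18722274-18722523, chr16:17709413-17709662 and chrX:105023873-105024122, 5′ to 3′, with GC boxes of either strand in capitals.
Rab3a: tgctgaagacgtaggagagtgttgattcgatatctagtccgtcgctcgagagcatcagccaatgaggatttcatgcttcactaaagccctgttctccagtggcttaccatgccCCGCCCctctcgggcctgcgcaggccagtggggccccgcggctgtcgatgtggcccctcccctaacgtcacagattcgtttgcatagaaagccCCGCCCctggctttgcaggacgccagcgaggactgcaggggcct
Rab8a: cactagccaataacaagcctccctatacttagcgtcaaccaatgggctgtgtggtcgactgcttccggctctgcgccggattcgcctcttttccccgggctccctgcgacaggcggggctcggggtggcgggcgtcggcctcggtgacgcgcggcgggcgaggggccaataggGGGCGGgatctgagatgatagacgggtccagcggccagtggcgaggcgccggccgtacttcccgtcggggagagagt
Rab9b: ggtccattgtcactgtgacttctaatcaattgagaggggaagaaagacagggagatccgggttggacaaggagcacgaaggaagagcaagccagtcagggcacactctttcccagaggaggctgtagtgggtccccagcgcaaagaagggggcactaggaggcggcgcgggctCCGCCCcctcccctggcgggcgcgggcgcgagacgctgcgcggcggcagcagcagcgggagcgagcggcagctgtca
All 3 hold a GC box, 2 in Rab3a and 1 in each of the others, and their GC content is 60.4%, 67.6% and 65.2%.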

How the data were processed

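RNA sequencing of rat MPOA samples was processed by the authors with bcl2fastq 2.20, STAR 2.5.3a, RSEM and edgeR 3.28.0 on build Rnor_6.0, per the submitters' processing notes. Annotation release, low-count filter and covariates: not given in the sources used here. Per gene, the deposited table holds a log2 fold change, a log2 average CPM over the libraries, a likelihood ratio statistic (a score), an unadjusted p-value and its Benjamini-Hochberg adjustment, all made by the authors. These p-values equal the chi-square tail of that statistic with 1 degree of freedom, and the adjusted ones imply 14859 tests, 4 more than the rows analysed.

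Folds, SEs and 95% intervals were computed from the table, treating the statistic as a squared normal value. It was tried on simulated counts with an assumed depth and the same dispersion set for every gene. That does not check the intervals at the depth and spread of these data. Adjusted p under 0.05 was the threshold, over all genes. Samples were grouped by their labels. Depth per sample is unknown. Rab classes, regulators and effectors came from written lists; the members and lists were chosen with earlier results of these data known. In each class the 4 genes of highest CPM and the 4 of smallest p were named, and in each partner group the 3 of smallest p. Of the genes this rule names, 1 is not reported here. Alternatives changed the threshold, the abundance minimum, the centring, the summary and the class lists. No test compares classes, since values per sample were not analysed. Promoters were matched by symbol. Python 3.11.15, numpy, scipy, pandas and matplotlib were used.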

Additional observations from a re-analysis of the deposited data

How the results depend on the processing

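The count of 0 Rab genes and that of 0 regulators and effectors past an adjusted p of 0.05 were 0 in 6 alternatives. At adjusted p under 0.01 and with at least 1.5-fold this was fixed in advance, as both only tighten the rule. The others were adjusted p under 0.1, the adjustment redone over the rows in the table, and genes at or above a log2 average CPM of 0 or 4. With each deposited adjusted p of these genes at 0.9997, the threshold of 0.1 could not change the counts either. The redone adjustment differs from the deposited one by only 4 tests, so it is hardly a separate check. At an unadjusted p under 0.05 both counts were 3. The lowest adjusted p of a Rab gene was 0.9997 in each of these adjustments, and all 136 alternative adjusted p-values of single Rab genes kept their side of the threshold. The family's median log2 fold change ranged from −0.02 to 0.01, with the sign changed in 2 of 6 alternatives, and was −0.004 with the RAB1B-like and Rab5a-like rows added. The sign changed in 1 of 5 alternatives for early and recycling endosome Rabs, 2 of 5 for late endosomal Rabs (−0.17 to 0.02), 2 of 6 for the ER, Golgi and biosynthetic class (−0.11 to 0.02) and 0 of 6 for synaptic and secretory vesicle Rabs. In the synaptic, the late endosomal and the ER, Golgi and biosynthetic classes, the centrings and the log2 CPM minimum of 0 could not change the sign. For early and recycling endosome Rabs that minimum could not change it either. The late endosomal sign changed in each alternative that could change it. The median of Rab genes in no class was 0.46, and 0.19 at log2 CPM of at least 4. That value, the 2 added rows and the count of 2 Rab genes at an unadjusted p under 0.01 were chosen after seeing the data. No paired analysis was possible because values per sample were not analysed here, and leaving out each replicate was not run for the same reason. For the 13 Rab genes of log2 CPM below 4 no interval lay within 2-fold.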
